A study of Rattus norvegicus with 3 samples.

Results

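The genes described here are the Wnt ligands, their frizzled and Lrp receptors, the R-spondins with their Lgr receptors, and the secreted antagonists of the Sfrp and Dkk families, together with Axin2, Wif1 and Notum. They were chosen by name alone from the mRNA gene table of rat sciatic nerve, and the choice found 49 genes of 22608. The table held 3 libraries, 1 per group, all from sciatic nerve of male Sprague-Dawley (SD) rats labelled 30 days after injury. In the sham group the nerve was exposed and not damaged. In the model group, whose treatment label reads control, the nerve was squeezed with vascular forceps, and in the AKBA group the squeezed nerve was also treated with AKBA, which is acetyl-11-keto-beta-boswellic acid from the resin of Boswellia trees. The reading of the model library as injured and untreated rests on its title letter and on the groups named for the series. The sources used here give no AKBA dose and do not say whether a library held the RNA of 1 rat or of several. With 1 library per group there is no replicate, no test and no p-value, and every ratio below compares libraries.

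Wnt proteins bind frizzled receptors together with the co-receptors Lrp5 or Lrp6, which stabilises beta-catenin and turns on genes through TCF/LEF factors, while other Wnt proteins act through planar polarity and calcium routes. R-spondins bind Lgr receptors and keep frizzled receptors at the cell surface, Sfrp and Wif1 proteins bind the ligands outside the cell, Dkk proteins block the Lrp co-receptors, and Axin2 is both a target and an inhibitor inside the cell. In peripheral nerve of rodents the pathway has been tied to Schwann cell development and to the expression of myelin genes.

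Levels are given as CPM, the count of a gene scaled to the library's gene total. These totals were 74184217 for sham, 89505656 for model and 90071899 for AKBA, so that a gene with 0 counts may still lie at up to 3 counts, which is 0.0404, 0.0335 and 0.0333 CPM. Ribosomal RNA rows held 11.5%, 4.20% and 7.59% of the counts in that order. Over all genes the median log2 ratio was 0.18 between model and sham, -0.04 between AKBA and model, and 0.16 between AKBA and sham. TMM scaling moved the first by -0.20 and the last by -0.15, so a small positive ratio to sham says little about a gene on its own. The libraries carried the mark of nerve, with the Schwann cell factor Sox10 at 32.4 CPM in sham, 77.3 CPM in model and 107 CPM in AKBA. In bulk RNA of this kind, fewer cells of a type and less RNA per cell cannot be told apart. CPM is not corrected for transcript length, so levels are compared between libraries and not between genes.

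Of the 49 genes, 33 had a mean of at least 1 CPM over the 3 libraries, 12 had some counts below that level and 4 had no count in any library. A gene past that level was counted as different when log2 of (CPM + 1) in 1 library over (CPM + 1) in the other reached 2-fold in either direction. The 33 genes were the highest in model in 15 cases, in AKBA in 12 and in sham in 6. Among all 14427 genes past the same level the shares were 42.4%, 36.3% and 21.3%, against 45.5%, 36.4% and 18.2% for the 33. In their summed level the 49 genes held 1600.5 CPM in sham, 1802 CPM in model and 1503 CPM in AKBA.

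**Figure D1:**
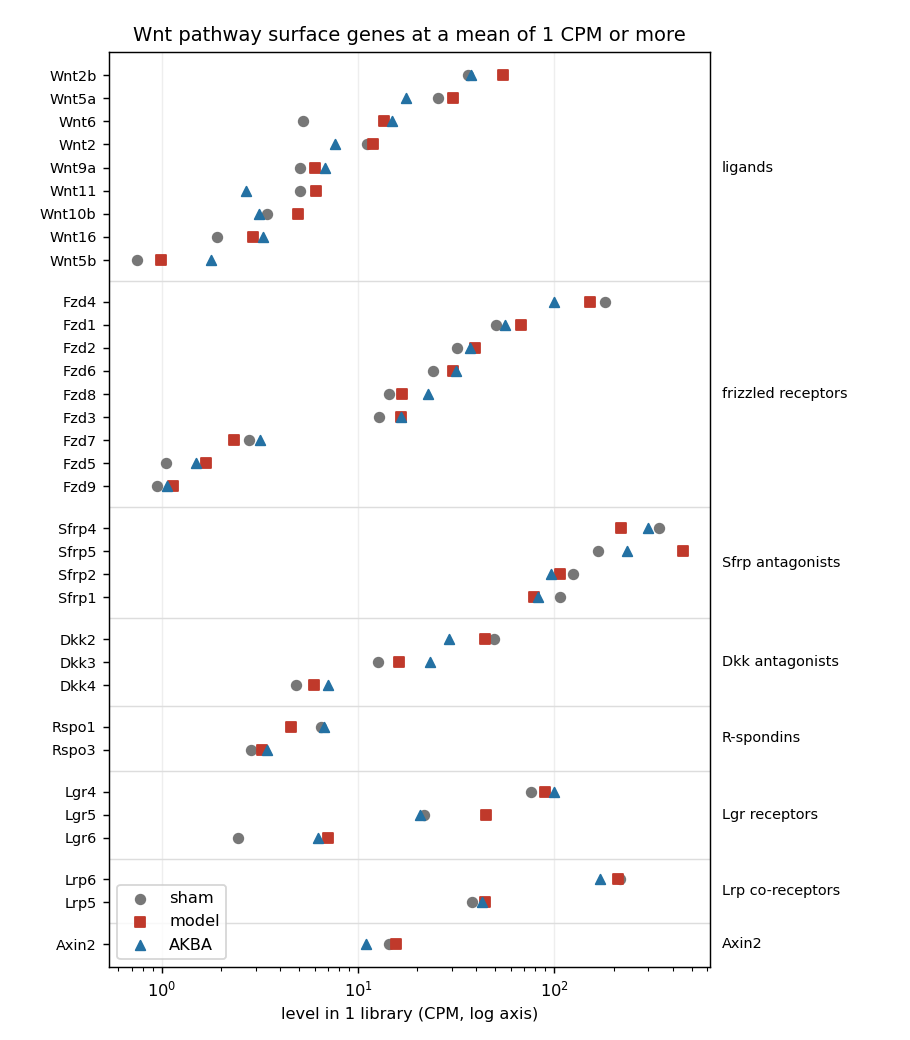
Level of each of the 33 genes that average at least 1 CPM in sham (grey circles), model (red squares) and AKBA (blue triangles), in CPM on a log axis, 1 library per point, ordered by class. Wnt6 and Lgr6 lie apart in sham from both injured libraries, whereas Sfrp5 and Lgr5 lie apart in model.

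Because Axin2 is the textbook readout of beta-catenin signalling, its promoter is shown beside those of 3 of the genes that differed most between model and sham. The fourth such gene, Lgr5, is named only. The windows cover 250 bases before to 50 after the start of the gene in RefSeq, on build GRCr8, and capitals mark the letters CTTTGAA or CTTTGAT, a TCF/LEF motif, searched on both strands (reverse letters TTCAAAG and ATCAAAG). The windows were chr10:94398535-94398834 on the plus strand for Axin2, chr1:250960463-250960762 on the minus strand for Sfrp5, chr9:83778302-83778601 on the plus strand for Wnt6 and chr13:49095808-49096107 on the minus strand for Lgr6.
Axin2: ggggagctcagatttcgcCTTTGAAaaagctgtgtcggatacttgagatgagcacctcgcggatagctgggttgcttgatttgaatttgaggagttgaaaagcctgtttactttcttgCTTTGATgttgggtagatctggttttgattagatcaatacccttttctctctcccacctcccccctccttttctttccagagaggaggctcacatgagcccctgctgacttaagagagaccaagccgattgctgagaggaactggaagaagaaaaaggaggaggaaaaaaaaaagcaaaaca
Sfrp5: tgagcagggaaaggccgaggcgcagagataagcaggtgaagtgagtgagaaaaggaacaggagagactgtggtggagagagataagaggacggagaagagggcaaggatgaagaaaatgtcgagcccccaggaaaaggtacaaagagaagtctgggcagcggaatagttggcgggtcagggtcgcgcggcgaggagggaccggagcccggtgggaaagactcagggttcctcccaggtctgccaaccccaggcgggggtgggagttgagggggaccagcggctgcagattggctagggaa
Wnt6: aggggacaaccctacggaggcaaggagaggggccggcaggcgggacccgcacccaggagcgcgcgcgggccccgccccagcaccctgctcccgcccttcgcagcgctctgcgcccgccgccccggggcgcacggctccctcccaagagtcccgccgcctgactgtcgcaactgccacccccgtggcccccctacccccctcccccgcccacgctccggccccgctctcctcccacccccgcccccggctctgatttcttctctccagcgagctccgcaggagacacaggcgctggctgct
Lgr6: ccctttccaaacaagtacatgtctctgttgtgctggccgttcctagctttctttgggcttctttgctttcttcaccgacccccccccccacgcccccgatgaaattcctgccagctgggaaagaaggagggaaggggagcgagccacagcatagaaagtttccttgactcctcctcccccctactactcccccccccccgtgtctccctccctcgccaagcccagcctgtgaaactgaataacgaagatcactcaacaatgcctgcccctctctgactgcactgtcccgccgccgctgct

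The Axin2 window held 2 matches, beginning 232 and 132 bases before the start. The windows of Sfrp5, Wnt6 and Lgr6 held 0, which says only that these letters are not in those windows. The motif was present in 4 of the 32 windows found for the genes described here (Axin2, Dkk1, Fzd7 and Wnt8a) and in 8.73% of all 33469 windows of the same length. The GC content was 45.7% in the Axin2 window, 59.7% in that of Sfrp5, 76.3% in that of Wnt6 and 58.3% in that of Lgr6, and the median was 65.5% over the 32 windows and 51.7% over all.

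Model against sham shows what the nerve held differently at day 30 after the squeeze. At least 2-fold higher in model were 4 of the 33 genes (Sfrp5, Lgr6, Wnt6 and Lgr5), and 0 were at least 2-fold lower. Among all genes past the level filter 4.52% were at least 2-fold higher and 1.31% lower, which is 652 and 189 genes, or 376 and 293 with TMM scaling. The median log2 ratio of the 33 genes was 0.23, or 0.05 above that of all genes, and 75.8% (25 genes) were above 0, near the 71.0% of all genes. Scaled by TMM, by the median of ratios or by upper quartile, or with ribosomal RNA rows left out of the totals, 3 were higher, without Lgr5.

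AKBA against model shows how the treated injured nerve differed from the untreated injured nerve. Lgr5 was at least 2-fold lower in AKBA and 0 of the 33 genes were at least 2-fold higher. Among all genes 1.37% were at least 2-fold lower and 2.69% higher. The median log2 ratio was -0.05 for the 33 genes and -0.04 for all genes, and 14 of the 33 were above 0.

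AKBA against sham sets the treated injured nerve beside the undamaged nerve, and both earlier comparisons share a library with it. Wnt6 and Lgr6 were at least 2-fold higher in AKBA and 0 genes at least 2-fold lower, against 5.83% and 2.08% of all genes. With TMM, median-of-ratios or upper quartile scaling the split was 1 higher (Wnt6) and 1 lower (Fzd4), and TMM changed that of all genes from 841 and 300 to 579 and 435. The median log2 ratio of the 33 genes was 0.15 and that of all genes 0.16.

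**Figure D2:**
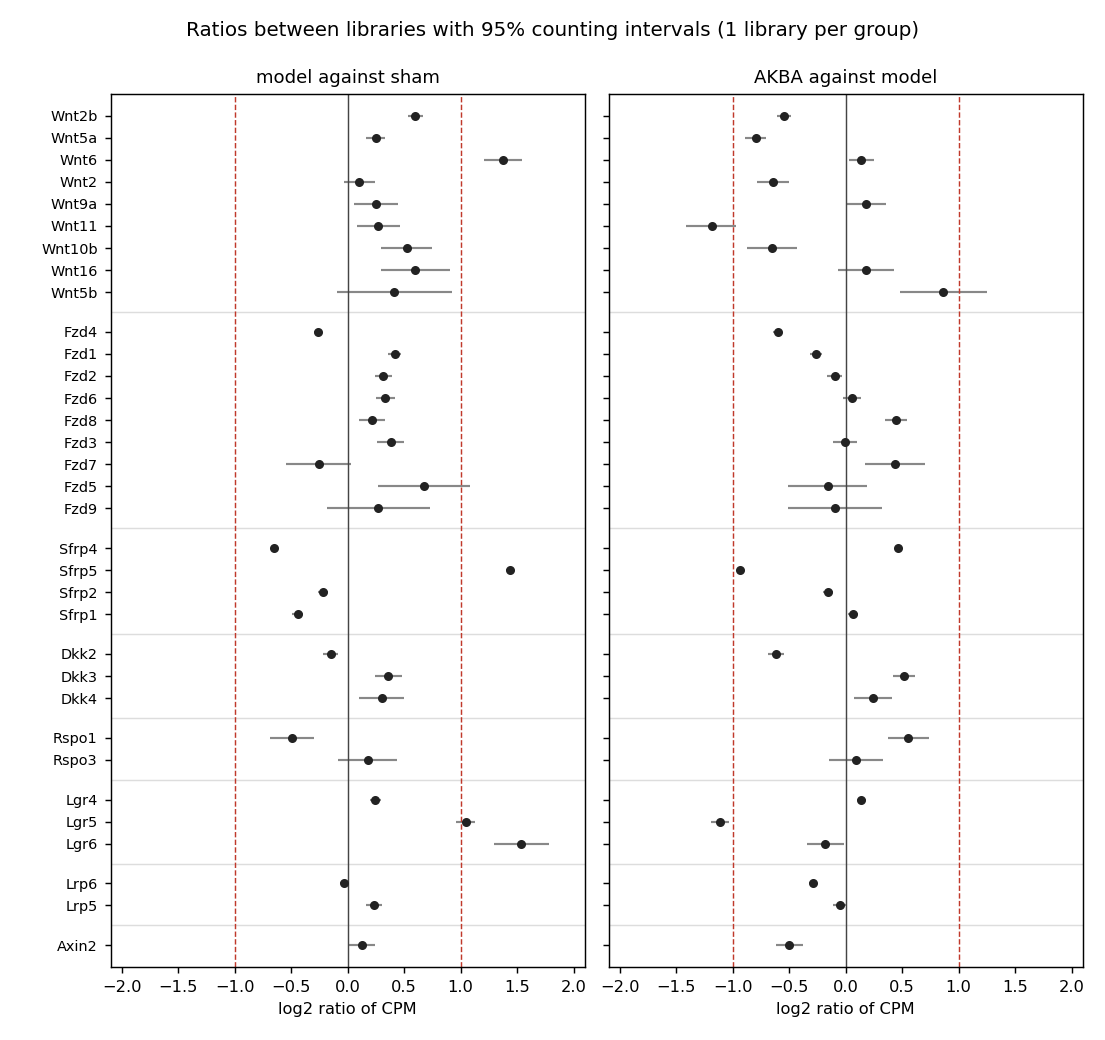
Ratio of CPM between 2 libraries for the 33 genes, as log2 without a pseudocount, for model against sham (left) and AKBA against model (right). Bars are exact 95% counting intervals and dashed lines mark 2-fold. Sfrp5, Lgr6, Wnt6 and Lgr5 lie past the line on the left. On the right Lgr5 and Wnt11 do, of which Wnt11 stays inside it once the pseudocount of 1 CPM is added.

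Of the 19 ligand rows, 9 had a mean of at least 1 CPM, and the 19 summed to 96.3 CPM in sham, 133.9 CPM in model and 97.3 CPM in AKBA. All 9 had a ratio above 0 for model against sham, with a median log2 ratio of 0.24, and 1 was at least 2-fold higher. Among all genes 71.0% were above 0, the median was 0.18 and 4.52% were at least 2-fold higher. The ratio of Wnt2, however, was below 0 under TMM, median-of-ratios and upper quartile scaling. For AKBA against model 4 of the 9 ligands were above 0 and 5 below, with a median of -0.52.

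Wnt6, a ligand of the beta-catenin route, stood at 5.22 CPM in sham, 13.5 CPM in model and 14.9 CPM in AKBA. Sham was the low library and both injured nerves were well above it. The model level was 2.59 times that of sham (95% counting interval 2.31 to 2.91; log2 ratio 1.22), and the AKBA level 2.85 times (2.54 to 3.20; log2 ratio 1.35). AKBA and model differed by much less, at a ratio of 1.10 (1.02 to 1.19). The 13 Schwann cell markers read here were also lowest in sham in summed level (10568, 18048 and 16282 CPM in sham, model and AKBA). Above 0 were 11 of the 13 in model against sham and 11 in AKBA against sham. Between AKBA and model 9 were above 0 and 4 below, although the sum was lower in AKBA. The 7 perineurial markers were likewise lowest in sham in summed level (801, 1744 and 1335 CPM). In model against sham 5 of the 5 past the level filter were above 0. Lypd2 was at 0 in sham and AKBA. The part of Schwann and perineurial cells in the Wnt6 result was not tested.

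Wnt2b, another ligand of the beta-catenin route, stood at 36.2 CPM in sham, 54.9 CPM in model and 37.6 CPM in AKBA. Model was the high library, at 1.51 times sham (1.44 to 1.59), and the AKBA level differed from sham by less than counting error, at 1.04 times (0.985 to 1.09). The transcript placed for Wnt2b had only 103 of 2688 gene counts in sham, 228 of 4912 in model and 160 of 3383 in AKBA. Wnt10b, which holds back fat cell formation in mouse, was also highest in model, at 3.42, 4.92 and 3.13 CPM in sham, model and AKBA. Its gene overlaps Tuba1c in RefSeq, whose row had 174, 300 and 173 CPM in the same order, and how reads of overlapping genes were assigned is not stated in these sources. The transcript placed for Wnt10b had 0 of the 254 gene counts in sham, against 397 of 440 in model and 258 of 282 in AKBA.

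Wnt5a, the best known ligand of the routes without beta-catenin, was at 25.6 CPM in sham, 30.3 CPM in model and 17.5 CPM in AKBA. AKBA was the low library, at 0.575 times model (0.540 to 0.612) and 0.683 times sham (0.638 to 0.730). Wnt11, which also acts through those routes, was at 5.07, 6.12 and 2.69 CPM, and Wnt2 at 11.03, 11.9 and 7.58 CPM, sham being named first and AKBA last. AKBA was again lowest in both, with a ratio to model of 0.439 for Wnt11 (0.376 to 0.511) and of 0.640 for Wnt2 (0.580 to 0.705). With the pseudocount Wnt11 lay just short of 2-fold (log2 ratio -0.95). The transcript placed for Wnt5a carried all 1896 gene counts in sham, 1354 of 2716 in model and 473 of 1572 in AKBA, so on it AKBA was lower still.

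The remaining ligands past the level filter, Wnt9a, Wnt16 and Wnt5b, were lowest in sham and highest in AKBA. Wnt9a had 5.04, 5.99 and 6.79 CPM and Wnt16 1.91, 2.89 and 3.28 CPM in sham, model and AKBA. The transcript placed for Wnt16 had 0 of 142 gene counts in sham, 225 of 259 in model and 249 of 295 in AKBA. Wnt5b, a near relative of Wnt5a, had 0.741, 0.983 and 1.79 CPM, or 55, 88 and 161 counts, in the 3 libraries. The AKBA level of Wnt5b was 2.41 times that of sham (1.76 to 3.34). The transcripts placed for Wnt9a and Wnt5b had 0 counts in each library. Fbxl14, which overlaps Wnt5b in RefSeq, had 24.7, 39.4 and 40.3 CPM in that order.

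Below the level filter, Wnt10a had 47, 93 and 107 counts in sham, model and AKBA, and Wnt9b 68, 58 and 30. Wnt4 had 14, 18 and 42, and Wnt3 had 7, 29 and 12. These counts are few, so their ratios carry wide intervals, as for Wnt3 in model against sham (3.43, 1.47 to 9.29). Wnt8b had 18 counts in sham and 0 in the others, and its gene overlaps Sec31b in RefSeq. Wnt7b had 0, 14 and 4 counts. Wnt7a had fewer than 10 counts in each library, and Wnt1, Wnt3a and Wnt8a had no count in any library.

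The 10 frizzled rows, of which 9 passed the level filter, summed to 320 CPM in sham, 327 CPM in model and 269 CPM in AKBA, and 0 of them differed 2-fold in any comparison. The widest gap was that of Fzd4. This gene, the receptor for norrin on endothelial cells, stood at 182 CPM in sham, 151 CPM in model and 99.6 CPM in AKBA. The AKBA level was 0.549 times that of sham (0.534 to 0.564; log2 ratio -0.86), which reached 2-fold under TMM (-1.02), median-of-ratios (-1.02) and upper quartile scaling (-1.03).

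Other values had the same order as Fzd4. Tspan12, the partner of Fzd4 in norrin signalling, was at 125, 108 and 73.2 CPM in sham, model and AKBA, while norrin itself (Ndp) went the other way at 4.02, 6.42 and 10.1 CPM. Tmem135, which lies within 1 kb of Fzd4 in RefSeq, was at 40.1, 31.7 and 20.3 CPM. The summed level of 12 fat cell markers was 11508, 6924 and 3434 CPM, with 11 of 12 below 0 in model against sham and 12 of 12 in AKBA against model, and none at 0. The 10 endothelial markers summed to 767, 1141 and 1043 CPM, lowest in sham, where Fzd4 was highest. Against sham, 9 of the 10 were above 0 in model and 9 in AKBA. Between AKBA and model 7 of the 10 were below 0, as was Fzd4, and 3 were above. The part of these cell types in the Fzd4 result was not tested.

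Sham was the lowest library in 7 of the other 8 frizzled genes past the level filter. Fzd1 was at 50.5, 67.4 and 56.0 CPM in sham, model and AKBA, and Fzd2 at 31.8, 39.6 and 37.0 CPM. Fzd3 and Fzd6, which act in planar polarity and axon guidance, had 12.7, 16.6 and 16.5 CPM for the former and 24.1, 30.3 and 31.5 CPM for the latter, and between model and AKBA both differed by less than counting error. The 3 transcripts placed for Fzd6 summed to 1665, 1559 and 1618 of 1785, 2714 and 2837 gene counts, so on them sham was not lower (log2 ratio -0.35 for model against sham and -0.31 for AKBA against sham). Fzd8 was highest in AKBA, at 14.3, 16.6 and 22.7 CPM, with AKBA 1.36 times model (1.27 to 1.46). Fzd5 (1.05, 1.68 and 1.499 CPM) and Fzd9 (0.944, 1.14 and 1.07 CPM) were near the filter, and Fzd10 had 5, 20 and 17 counts. The symbol Fzd10 is also an older name of Fzd2 in RefSeq. The transcripts placed for Fzd10 and for Fzd2 each equalled the count of their own row in all libraries.

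Fzd7 was split over 2 rows of the table. The row named Fzd7 had 2.78 CPM in sham, 2.32 CPM in model and 3.14 CPM in AKBA, and a second row, named only by the gene number that RefSeq gives to Fzd7, had 17.9, 26.6 and 25.7 CPM. The transcript placed for Fzd7 had 1331, 2379 and 2312 counts in sham, model and AKBA, the same as the second row. The row named Fzd7 had 206, 208 and 283 counts. The 2 rows together gave 20.7, 28.9 and 28.8 CPM. The row chosen by name was thus the smaller part of the gene, and its log2 ratio for model against sham (-0.18) turned to 0.46 when the rows were added, a step chosen after the values were seen.

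The co-receptors differed little. Lrp6 stood at 215 CPM in sham, 209.7 CPM in model and 171 CPM in AKBA, with AKBA lowest at 0.818 times model (0.8003 to 0.835). The transcript placed for Lrp6 had 0 of its 15949, 18765 and 15439 gene counts. Lrp5 stood at 37.8, 44.5 and 43.0 CPM, lowest in sham. The transcript placed for Lrp5 had 0 of 2805 gene counts in sham, 2499 of 3984 in model and 1332 of 3869 in AKBA.

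The 3 Lgr genes, receptors for R-spondins, summed to 99.9 CPM in sham, 142 CPM in model and 126 CPM in AKBA. Of these, 2 were at least 2-fold higher in model than in sham, as were 4.52% of all genes. Lgr5, a marker of stem cells in mouse intestine and hair follicle, stood at 21.6 CPM in sham, 44.7 CPM in model and 20.6 CPM in AKBA. Model was the high library, at 2.06 times sham (1.95 to 2.19; log2 ratio 1.01), and AKBA was at 0.461 times model (0.436 to 0.487; log2 ratio -1.08). AKBA and sham differed by less than counting error (0.952, 0.890 to 1.02). Relative to sham the log2 ratio was 0.80 with TMM scaling, short of 2-fold.

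The Lgr5 pattern was not in the transcript that could be placed. The transcript with a known Lgr5 accession had 1014, 652 and 1130 counts in sham, model and AKBA, against 1606, 4000 and 1856 for the gene, so the placed transcript accounted for the smaller part of the gene count in model. A further protein-coding gene without a common name overlaps Lgr5 in RefSeq.

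Lgr6, which is expressed in skin and muscle stem cells of mouse, had 180, 629 and 559 counts in sham, model and AKBA, or 2.43, 7.03 and 6.21 CPM. Like Wnt6, it was low in sham and higher in both injured nerves. The model level was 2.90 times sham (2.45 to 3.44; log2 ratio 1.23) and the AKBA level 2.56 times (2.16 to 3.04; log2 ratio 1.07, or 0.95 with TMM scaling). Lgr4, the broadly expressed member, stood at 75.8, 89.8 and 99.0 CPM, with AKBA 1.31 times sham (1.26 to 1.35).

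The 16 hair and epidermis markers summed to 8.95 CPM in sham, 11.1 CPM in model and 125 CPM in AKBA. Hoxc13 and Foxn1 were at 0 in all libraries, and only 8 of the 16 passed the level filter. Of these 8, 5 were at least 2-fold higher in AKBA than in model, while 2 differed by less than counting error. The 16 skeletal muscle markers summed to 454, 918 and 6874 CPM. Against sham, 14 of the 16 muscle markers were above 0 in model, 6 of them at least 2-fold higher, and all 16 were at least 2-fold higher in AKBA than in model, where Lgr5 and Lgr6 were lower. The part of these cells in the Lgr values was not tested.

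**Figure D3:**
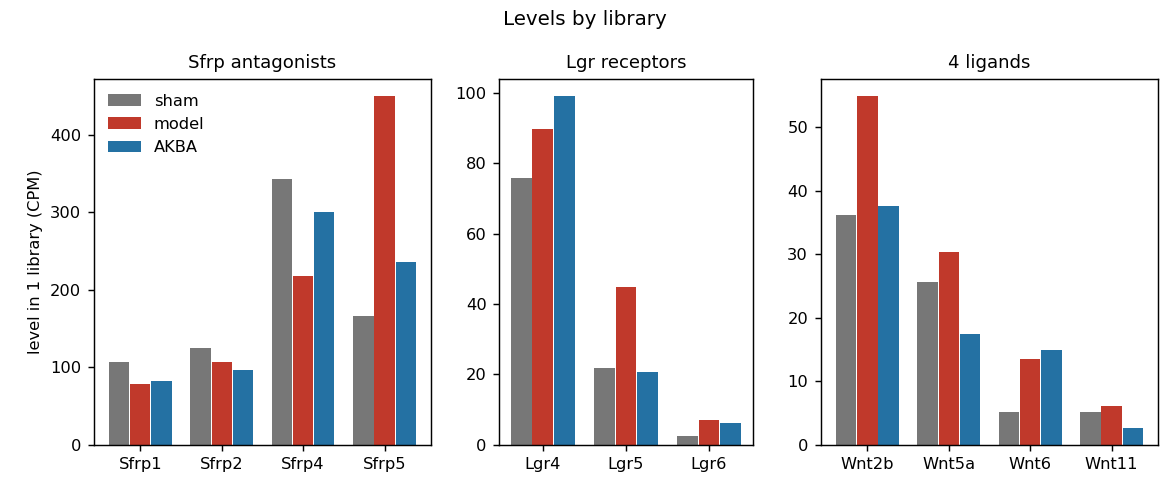
Levels in CPM of the 4 Sfrp genes, the 3 Lgr genes and 4 ligands in sham (grey), model (red) and AKBA (blue), 1 library per bar, so no error bar is drawn. Sfrp5, Lgr5 and Wnt2b are highest in model, Sfrp4 is lowest there, and Wnt6 and Lgr6 are low in sham.

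R-spondins, the ligands of the Lgr receptors, were present at low levels. Rspo1 was lowest in model, at 6.43, 4.57 and 6.72 CPM in sham, model and AKBA, and AKBA and sham differed by less than counting error (1.04, 0.925 to 1.18). Rspo3 was at 2.86, 3.23 and 3.44 CPM. Rspo4 had 6, 99 and 23 counts in those libraries, a ratio of model to sham of 13.7 with a counting interval of 6.06 to 38.2. Rspo2 had 36, 31 and 86 counts and was highest in AKBA. Rspo2 and Rspo4 did not pass the level filter.

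The Sfrp antagonists, which resemble the ligand-binding part of a frizzled receptor, held 740 CPM in sham, 852 CPM in model and 714 CPM in AKBA in all, and their makeup differed between the libraries. Sfrp5 stood at 166 CPM in sham, 449 CPM in model and 235 CPM in AKBA. Model was the high library, at 2.70 times sham (2.65 to 2.76; log2 ratio 1.43, and 1.21 with TMM scaling). AKBA lay between, at 0.523 times model (0.515 to 0.532; log2 ratio -0.93) and 1.41 times sham (1.38 to 1.45).

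Sfrp4 went the other way, at 342 CPM in sham, 218 CPM in model and 301 CPM in AKBA, with model 0.635 times sham (0.623 to 0.647) and AKBA 1.38 times model (1.36 to 1.41). Sfrp5 thus took 22.5% of the counts of the 4 genes in sham, 52.7% in model and 32.9% in AKBA, while Sfrp4 took 46.3%, 25.5% and 42.1%. Sfrp1 (107, 78.4 and 82.0 CPM) and Sfrp2 (125, 107 and 96.2 CPM) were highest in sham.

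Sfrp5 is secreted by fat tissue in mouse. Of the 12 fat cell markers, 11 were highest in sham and lowest in AKBA, among them the adiponectin gene Adipoq at 2690.2, 1242 and 622 CPM in sham, model and AKBA. The exception was Cfd (adipsin), at 555, 1031 and 595 CPM, which had the order of Sfrp5. The 5 perineurial markers past the level filter were also highest in model and intermediate in AKBA, with Itgb4 at 507, 1194 and 922 CPM and Cldn1 at 187, 323 and 227 CPM. In summed level alone the 12 fibroblast markers were lowest in model, like Sfrp4 (26198, 20940 and 26953 CPM; 10 of 12 below 0 in model against sham, none at 0). Between AKBA and model only 4 of the 12 were above 0 and 8 were below. Single markers differed, with Col1a1 lowest in model (12667, 10406 and 15348 CPM) and Pi16 lowest in AKBA (83.5, 101 and 49.4 CPM). Nme8, which overlaps Sfrp4 in RefSeq, was under 1 CPM in each library. The part of fat, perineurial and fibroblast cells in the Sfrp values was not tested.

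Among the Dkk genes, 3 passed the level filter and 0 differed 2-fold. Dkk2 stood at 49.3 CPM in sham, 44.4 CPM in model and 28.9 CPM in AKBA, and AKBA was the low library at 0.652 times model (0.620 to 0.685). Dkk3, a divergent member that does not act as a typical Lrp blocker, was ordered the other way at 12.6, 16.1 and 23.1 CPM, with AKBA 1.83 times sham (1.70 to 1.98). Dkk4 was at 4.83, 5.94 and 7.02 CPM and lies within 1 kb of Polb in RefSeq, whose row had 13.0, 14.2 and 14.2 CPM. Dkk1, the best known blocker of Lrp6, had no count in any library.

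Axin2 stood at 14.3 CPM in sham, 15.6 CPM in model and 11.01 CPM in AKBA. Sham and model were close, with a ratio of 1.09 (1.004 to 1.18) that was below 1 under TMM scaling (log2 ratio -0.09), and AKBA was the low library at 0.707 times model (0.651 to 0.767). Wif1, which binds Wnt ligands, had 42, 122 and 79 counts, with model 2.41 times sham (1.68 to 3.51) at a level below the filter. Notum, which removes the lipid of Wnt ligands, had fewer than 10 counts in each library.

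The rest of the pathway was read from 7 lists of genes grouped by role. In model against sham, 1 of 14 further Wnt receptors and polarity genes past the level filter was at least 2-fold higher and 0 lower. Among all genes 4.52% were higher and 1.31% lower. The median log2 ratio was 0.10 for the 14 genes and 0.18 for all genes. The higher gene was Celsr2, a polarity cadherin, at 20.8 CPM in sham, 88.4 CPM in model and 68.3 CPM in AKBA (log2 ratio 2.04). Its relative Celsr1 was at 6.09, 12.04 and 16.3 CPM.

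In the same comparison 2 of 22 genes of the intracellular relay were at least 2-fold higher and 0 lower (median 0.29). Among all genes past the level filter the shares were 4.52% and 1.31%. The 2 relay genes included Apc2, a relative of the scaffold Apc, at 18.3, 43.3 and 44.5 CPM in sham, model and AKBA. The other was Dact3, a Dishevelled-binding antagonist, at 8.28, 18.3 and 20.3 CPM. Beta-catenin itself (Ctnnb1) was at 412, 541 and 545 CPM, Apc at 197, 202 and 169.8 CPM, while the kinase Gsk3b had 117, 115 and 95.4 CPM. None of these 3 core genes differed 2-fold.

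Beside 4.52% and 1.31% of all genes, 1 of 16 nuclear factors was at least 2-fold higher in model than in sham and 0 lower (median 0.25). This was Sox17, an endothelial factor that can bind beta-catenin, at 17.0, 53.2 and 34.4 CPM. Lef1 was at 3.67, 5.17 and 3.73 CPM and Tcf7l2 at 15.4, 12.7 and 7.83 CPM, lowest in AKBA. Of 6 genes for the secretion of Wnt ligands and of 9 for receptor partners, 0 differed 2-fold in any comparison. The ligand carrier Wls was at 206, 233 and 192 CPM and the acyl transferase Porcn at 11.2, 13.6 and 11.3 CPM, both highest in model.

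Among 13 other regulators and antagonists of the pathway, 0 were 2-fold higher and 1 was lower in model than in sham, against 4.52% and 1.31% of all genes. Between AKBA and model 2 were higher in AKBA and 0 in model, against 2.69% and 1.37% of all genes. Sost, a blocker of Lrp5 and Lrp6, was the low gene and also a high gene of the second comparison, with 102, 0 and 272 counts in sham, model and AKBA. Cthrc1, a matrix protein that favours polarity signalling, was at 15.8, 8.25 and 22.2 CPM (log2 ratio 1.33 for AKBA against model).

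Of 17 commonly used target genes past the level filter, 0 were 2-fold higher and 1 was lower in model than in sham, against 4.52% and 1.31% of all genes. In AKBA 2 were higher than in model and 0 the reverse, against 2.69% and 1.37% of all genes. Ccn5, listed under its older symbol Wisp2, was at 60.2, 29.1 and 60.3 CPM and was the low gene of the first comparison and a high gene of the second. Tnfrsf19, a receptor of the TNF family, was at 1.54, 2.55 and 6.52 CPM, highest in AKBA (log2 ratio 1.08 against model). The cyclin Ccnd1 was at 98.5, 188 and 199 CPM, low in sham, whereas Apcdd1, an inhibitor and target of the pathway, was at 125, 109 and 65.0 CPM. The target genes thus had no common order over the libraries. Nkd1, Rnf43, Znrf3, Tcf7, Lef1 and Apcdd1 stand in this and in another of the lists.

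**Figure D4:**
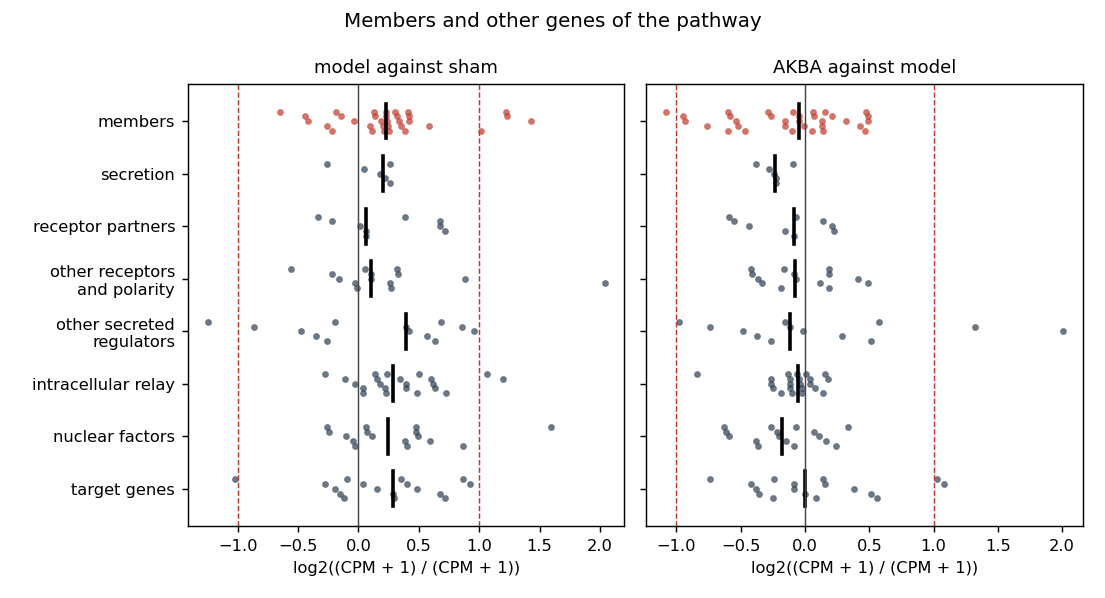
Log2 of (CPM + 1) over (CPM + 1) for the 33 genes (red) and for 7 lists of other pathway genes (dark), with the median of each as a bar, for model against sham (left) and AKBA against model (right), 1 library per group. Dashed lines mark 2-fold, and most genes of each list lie inside them.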

How the data were processed

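RNA of 3 rat nerve libraries was read from the mRNA gene and transcript tables. The authors deposited raw counts, without normalization, and 2 stray characters after each value of the model column, entered here as another kind of value, were removed. Probes removed ribosomal RNA and random primers made the cDNA, per the labels' protocols. HISAT2, StringTie, limma, DESeq2 and bcl2fastq 2.0 are listed, without their roles, in the submitters' processing notes, with the mouse build mm10, although the rows carry rat gene names. The sources used here do not give the alignment genome, strand setting or filters. Columns were assigned by the key given with the series.

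CPM, ratios with a pseudocount of 1 CPM, a filter at a mean of 1 CPM and exact Clopper-Pearson 95% intervals were computed with Python 3.11.15 and scipy 1.17.1, and scaling factors with edgeR 4.0.16 and DESeq2 1.42.0. The intervals reflect counting error alone and take each read as independent. Reads copied by PCR are not independent molecules, so the intervals may be too narrow even for counting error. The computation of ratios and intervals was checked on simulated counts that held counting error alone. Those counts had no spread between animals and no PCR copies, so they cannot show how well the intervals suit these data. The 8 alternatives planned and 1 added are given in the closing section.

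Every gene matched by name is reported: with CPM at a mean of at least 1, with counts below it, and by name when below 10 counts in every library. Other pathway genes are named when core or at least 2-fold different in a comparison, markers at most 2 per list, and Tspan12, Apcdd1 and the RefSeq neighbours after their values were seen. The genes and lists were chosen with earlier results of these data known. Names, neighbours and promoter sequences come from RefSeq (GRCr8), which placed at least 1 transcript for 45 of the 49 genes. Older symbols were used for Ccn4, Ccn5 and Tle5, and Axin1 and Tnks2 are not analysed here. The lncRNA tables were not used. A further Schwann cell marker is not reported here.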

Additional observations from a re-analysis of the deposited data

How the results depend on the processing

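Each group had 1 library, so no library could be left out, and no spread between animals is known. No paired analysis was possible because each group had 1 library and the labels give no replicate numbers. Depth limits the ratios of genes below about 1 CPM. The median log2 ratio of the genes against sham moved with the median of all genes: for model against sham it was 0.030 with TMM, 0.046 with median-of-ratios and 0.042 with upper quartile scaling, and for AKBA against sham 0.010 with TMM, 0.011 with median-of-ratios and 0.0086 with upper quartile scaling. The number of genes 2-fold different in AKBA against model went from 1 to 2 with a pseudocount of 0.1 (Lgr5 and Wnt11) and to 2 with sums of transcripts (Wnt11 and Wnt5a), and in AKBA against sham from 2 to 5 with sums of transcripts. These sums hold placed transcripts alone, and for Fzd7 they hold the counts of its second row instead. With them Lgr5 was reversed, at -0.82 for model against sham and 0.71 for AKBA against model, and the sign changed for Wnt5a (-0.72) and Fzd6 (-0.35) in model against sham, for Fzd6 (-0.31) and Wnt10b (1.95) in AKBA against sham, and for Fzd7 between model and sham (0.54) and between AKBA and model (-0.05). The other counts of 2-fold different genes stayed within 1.5 times in the 9 alternatives, of which the second Fzd7 row was added after the data were seen. A similar count did not mean the same genes. With sums of transcripts the 5 genes higher in model than in sham were Lrp5, Sfrp5, Wnt10b, Wnt16 and Wnt6. Lgr6 had no placed transcript, so it could not be read in this way. Under at least 1 alternative 11 ratios of single genes reached 2-fold. A further 2 (Lgr5 in model and Lgr6 in AKBA, both against sham) dropped below it in the same direction. Lgr5 in AKBA against model dropped below it only in its reversal with sums of transcripts. Under the scalings alone the ratio to sham of Wnt2, Rspo3 and Axin2 in model, and of Wnt2b, Fzd1 and Rspo1 in AKBA, changed sign, as did Fzd3 between AKBA and model and, with TMM, Lrp5.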

Other observations

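The transcript table split a few of these genes differently between the libraries. Of 45 genes with a placed transcript, the transcripts summed to the gene count in all libraries in 31, and in 14 they did not. For Dkk3, which was among the 31, a predicted transcript held 934, 134 and 274 counts in sham, model and AKBA, while the curated transcript held 0, 1310 and 1632. The whole sham count of Dkk3 was thus on a transcript that held 9.28% of the counts in model and 13.2% in AKBA. For Fzd8 the curated transcript held 2.45%, 56.4% and 52.0% of the counts, the remainder being on a predicted transcript. For Rspo3 the curated transcript held 53.3%, 10.7% and 38.1% of 212, 289 and 310 counts. How reads were divided between overlapping transcripts is not stated in these sources, and with 1 library per group no spread of these shares is known.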
